A study of Mus musculus with 9 samples.

Results

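The genes described here encode 10 liver-derived hormones, hormone-binding proteins and hormone receptors: Fgf21, Gdf15, Inhbe, Angptl8, Ahsg, Igfbp1, Igfbp2, Lepr, Fgfr4 and Klb. They were chosen by name and with no threshold on their values, though earlier results of these data were known. All 10 of 10 were found among the 16521 genes measured. Liver RNA of C57BL/6 mice was sequenced in 3 groups of 3 samples. The SAR group was fed the MCD diet, which lacks methionine and choline and is used to produce fatty, inflamed liver, and was treated with a high dose of sarsasapogenin (SAR), a plant steroidal sapogenin, in an amount not given in the labels. The model group was fed the same diet without SAR. The normal group, titled wt in the labels (a genotype word given for no other group), received saline, and no MCD diet is recorded for it. The labels give no age, no duration and no statement that samples of a group were separate mice, so p-values reflect spread among samples that may be technical copies.

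A hepatokine is a protein that the liver releases into blood and that acts on other organs. FGF21 acts through FGFR1 with the co-receptor beta-klotho in fat and brain, GDF15 acts through GFRAL in the hindbrain, and both are known to be induced in stressed liver. In the liver itself, FGFR4 with beta-klotho receives FGF15 from the ileum and lowers bile acid synthesis, whereas IGFBP1 and IGFBP2 bind insulin-like growth factors in plasma. Leptin receptor on liver cells is also shed as a soluble form that binds leptin in blood.

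RefSeq promoter entries, each from 250 bases before to 50 bases after a transcription start on GRCm38.p6, were found for all 10 genes, with 13 entries in all. They were searched on both strands for 4 motifs that textbooks tie to the control of such genes: TGATGNAA (bound by ATF4 with C/EBP), CAAAACA (the insulin response sequence bound by FoxO proteins), CACGTG (an E-box) and TGACGTCA (the cAMP response element). The 5 sequences shown are those of the genes whose transcripts the stress and insulin results below turn on, with every match in capitals. The windows were chr7:45615441-45615740 on the minus strand for Fgf21, chr8:70632046-70632345 on the minus strand for Gdf15 (1 of its 2 entries), chr10:127351799-127352098 on the minus strand for Inhbe, chr9:21835260-21835559 on the plus strand for Angptl8 and chr11:7197537-7197836 on the plus strand for Igfbp1. Each is written 5′ to 3′ in the direction of the gene.
Fgf21: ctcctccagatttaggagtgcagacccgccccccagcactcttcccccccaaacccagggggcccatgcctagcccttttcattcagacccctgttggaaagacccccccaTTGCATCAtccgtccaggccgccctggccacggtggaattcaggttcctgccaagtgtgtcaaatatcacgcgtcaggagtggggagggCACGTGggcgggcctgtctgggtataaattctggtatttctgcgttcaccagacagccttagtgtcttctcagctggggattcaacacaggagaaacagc
Gdf15: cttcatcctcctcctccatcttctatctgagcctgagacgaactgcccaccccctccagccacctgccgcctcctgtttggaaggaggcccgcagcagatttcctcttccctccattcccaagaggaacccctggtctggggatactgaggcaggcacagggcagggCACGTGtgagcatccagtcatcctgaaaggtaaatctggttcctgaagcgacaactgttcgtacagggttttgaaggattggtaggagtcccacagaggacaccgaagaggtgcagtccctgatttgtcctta
Inhbe: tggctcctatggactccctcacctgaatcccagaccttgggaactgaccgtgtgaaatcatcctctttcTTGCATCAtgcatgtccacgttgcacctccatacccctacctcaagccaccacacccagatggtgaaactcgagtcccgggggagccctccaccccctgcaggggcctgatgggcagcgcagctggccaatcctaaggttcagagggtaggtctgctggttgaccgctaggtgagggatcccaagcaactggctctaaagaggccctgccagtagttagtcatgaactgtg
Angptl8: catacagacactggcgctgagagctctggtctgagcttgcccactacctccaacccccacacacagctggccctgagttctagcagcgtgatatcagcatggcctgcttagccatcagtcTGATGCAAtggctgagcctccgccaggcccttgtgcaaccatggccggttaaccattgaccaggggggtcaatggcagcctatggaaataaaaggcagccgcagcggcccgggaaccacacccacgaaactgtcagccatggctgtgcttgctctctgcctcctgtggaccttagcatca
Igfbp1: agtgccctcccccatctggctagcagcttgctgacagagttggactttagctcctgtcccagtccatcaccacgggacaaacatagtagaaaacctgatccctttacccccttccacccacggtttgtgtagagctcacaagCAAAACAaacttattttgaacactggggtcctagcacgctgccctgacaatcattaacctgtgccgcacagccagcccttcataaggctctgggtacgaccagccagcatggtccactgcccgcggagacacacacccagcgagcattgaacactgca

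The ATF4 motif lay in the windows of 3 of the 10 genes: Fgf21, Inhbe and Angptl8. It began 139 bases before the start in Fgf21 and 181 bases before it in Inhbe, as TTGCATCA, the reverse complement, and 130 bases before the start in Angptl8, as TGATGCAA. The same letters lay in 3.97% of all 32851 promoter windows in the table. This share and those below count windows, whereas the counts beside them are of genes, and the 10 genes had 13 windows. The E-box lay in 3 genes, 50 bases before the start in Fgf21, 83 in Gdf15 and 142 in 1 entry of Igfbp2, against 7.15% of all windows. The FoxO motif lay in 2 genes, 108 bases before the start in Igfbp1 and 114 in 1 entry of Lepr, against 6.28% of all windows. No window of the 10 genes held TGACGTCA, which 1.79% of all windows held. No 2 of these matches overlapped. A match describes the letters of the window and was not tied to binding, and its part in any result below was not tested.

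The deposited tables hold group means only, and the reads of each library were solved from the printed digits of those means (see the processing account). The 3 libraries of a group are called a, b and c in order of falling size factor, and the letters match neither the replicate numbers of the labels nor libraries of other groups. Levels are reads divided by size factors computed over all 9 libraries ("normalised reads"), given in the order a, b, c, and they are not divided by transcript length, so levels of different genes are not compared. For 9 of the 10 genes the reads were solved in all 9 libraries. Ahsg, which had the most reads of the 10, was solved in the model libraries only.

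One library each of the model and normal groups, both lettered c, differed from the rest of its group. The summed level of 9 neutrophil markers was 317, 225 and 576 normalised reads in the SAR libraries, 1224, 1526 and 2712 in the model libraries and 106, 232 and 7413 in the normal libraries. That of 6 bile duct markers was 1681, 985 and 756 in the SAR libraries, 9477, 10785 and 1976 in the model libraries and 463, 753 and 834 in the normal libraries. No marker of these lists was at 0 in all libraries. The tissue label was met: 8 of 8 hepatocyte markers were present. Among these markers, as tested in the authors' deposited tables, 5 of the 8 were lower in model than in normal liver at an adjusted p under 0.05 (Apoa1, Apob, Serpina1c, Hnf4a and Cps1) and 6 of the 8 were higher in SAR than in model liver (Ttr, Alb, Apoa1, Apob, Serpina1c and Hnf4a). In such bulk samples, fewer cells of a type and less RNA per cell cannot be told apart, and the part of cell composition in the results below was not tested.

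**Figure D1:**
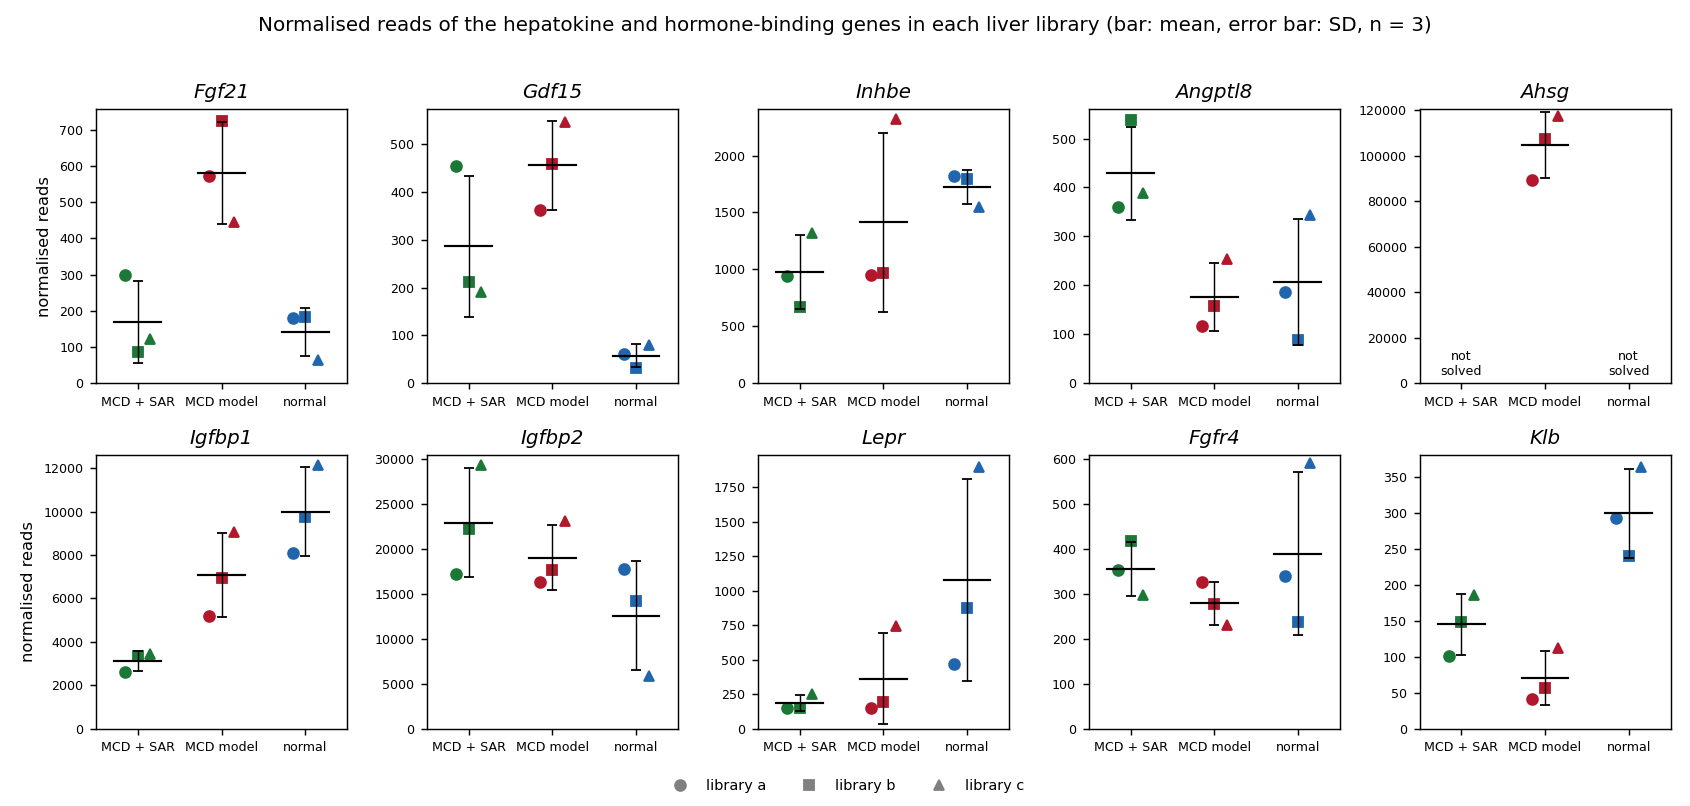
Level of each of the 10 genes in every library, in normalised reads on a linear axis that starts at 0, with 1 point per library (circle a, square b, triangle c), a bar at the group mean and an error bar of 1 SD (n = 3); MCD + SAR is on the left, the MCD model in the middle and normal on the right of each panel. Fgf21 and Gdf15 are high in the 3 model libraries, Klb is low in them, and Igfbp1 is lowest in the 3 SAR libraries; Ahsg has points for the model only.

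Across the 9 genes tested, 2 rose (Fgf21 and Gdf15), 1 fell (Klb) and 6 did not pass the test in model against normal liver. Over all 12583 genes tested in this comparison 19.9% rose and 19.1% fell at the same threshold, a limma adjusted p under 0.05, or 39% in either direction. In SAR against model liver 2 rose (Angptl8 and Klb), 2 fell (Fgf21 and Igfbp1) and 5 did not pass, where 13.2% of 12490 genes rose and 16.1% fell, or 29.3% in either direction. The median log2 fold change of the 9 genes was -0.40 in model against normal liver and -0.43 in SAR against model liver, and over all genes tested it was 0.03 and 0.02. The medians of the 9 genes rested on the c libraries: in model against normal liver the median was -0.04 without normal library c and 0.08 without both c libraries, and in SAR against model liver it was 0.08 without model library c. The 3 libraries of each group did not overlap for Fgf21, Gdf15 and Klb in model against normal liver, where 27.3% of all genes were without overlap and higher in model liver and 26.6% without overlap and lower. They did not overlap for Angptl8, Fgf21 and Igfbp1 in SAR against model liver, where these shares were 22.1% higher and 23.3% lower. These comparisons share the 3 model libraries, so a gene far out in those libraries moves in opposite directions in them. The shares called among the 9 genes are near those of all genes, and the genes are therefore described one by one. Counts of the other gene lists below, with all libraries kept, can be set against the same shares of all genes. Counts at an unadjusted p have no such share beside them, since none is given here. The same holds for counts with libraries left out, except where stated, and calls over all genes moved there too. With 1 library left out, 633 to 2562 genes were higher and 912 to 2613 lower in SAR against model liver. With all libraries these numbers were 1649 and 2012.

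**Figure D2:**
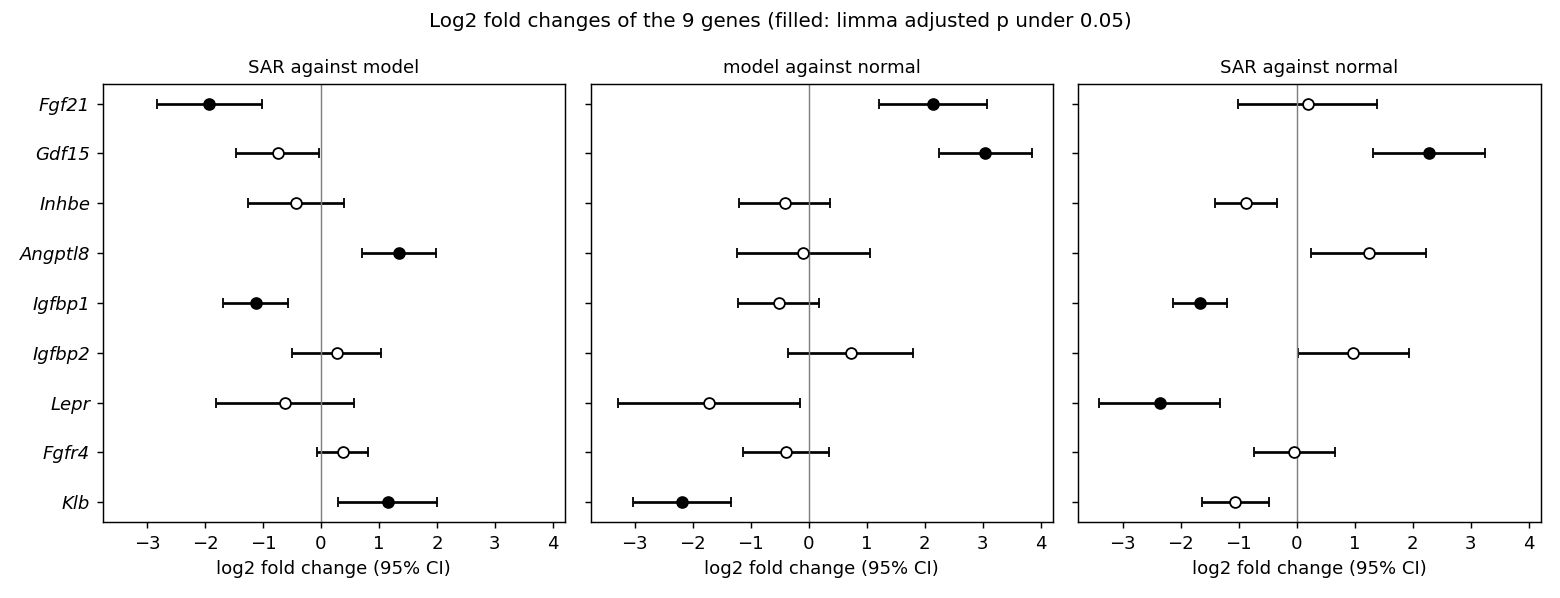
Log2 fold change of each of the 9 genes tested (points, horizontal axis) with its 95% confidence interval (lines) in SAR against model, model against normal and SAR against normal liver; filled points passed a limma adjusted p of 0.05 and the vertical line marks no change. Gdf15 and Fgf21 lie farthest to the right and Klb farthest to the left in model against normal liver, and Fgf21 lies farthest to the left in SAR against model liver.

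Fgf21, which encodes a fasting and stress hormone that raises fatty acid use, was highest in model liver. It had 298, 87.1 and 122 normalised reads in the SAR libraries, 573, 724 and 444 in the model libraries and 179, 182 and 65.0 in the normal libraries. The model libraries were all above every SAR and every normal library, and SAR library a held the highest SAR value. The model mean was 580 ± 140, against 142 ± 66.7 in normal liver (SD, n = 3 each), a log2 fold change of 2.14 (SE 0.40, 95% interval 1.21 to 3.07, adjusted p = 0.00684 by limma). The SAR mean was 169 ± 113 (SD, n = 3), a log2 fold change of -1.92 against model liver (SE 0.40, 95% interval -2.83 to -1.02, adjusted p = 0.00964). Both calls held under each alternative tried, 16 in model against normal liver with adjusted p up to 0.0339 and 15 in SAR against model liver with adjusted p up to 0.0415. The windows above place an ATF4 motif and an E-box before the start of this gene.

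Gdf15 encodes a stress hormone of the TGF-beta superfamily that lowers food intake. It was the gene with the largest difference of the 9 in model against normal liver, at 456, 212 and 191 normalised reads in the SAR libraries, 362, 460 and 546 in the model libraries and 61.5, 31.3 and 79.4 in the normal libraries. Every model library was above every normal library, while SAR library a lay within the model range and SAR libraries b and c lay between the model and normal ranges. Means were 456 ± 92.3 in model and 57.4 ± 24.3 in normal liver (SD, n = 3 each), and the log2 fold change was 3.05 (SE 0.34, 95% interval 2.25 to 3.84, adjusted p = 0.00159), or 8.26-fold on the log2(value + 1) scale. The call held in 16 of 16 alternatives, with adjusted p up to 0.0120. The log2 fold change in SAR against model liver was -0.74 (95% interval -1.46 to -0.03, adjusted p = 0.106), which did not pass, and SAR library a decided that call. Without that library it was -1.13 with an adjusted p of 0.0107.

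The integrated stress response is the pathway in which amino acid shortage or endoplasmic reticulum stress raises ATF4, a transcription factor known to induce Fgf21 and Gdf15. Of 19 other genes of this response tested, 8 rose and none fell in model against normal liver, with a median log2 fold change of 0.81. Over all genes tested, 19.9% rose and 19.1% fell. At an unadjusted limma p under 0.05 the counts of the 19 genes were the same, 8 and 0. Nupr1, a stress-induced chromatin cofactor, had 118, 29.0 and 25.6 normalised reads in SAR libraries, 599.5, 631 and 648 in model libraries and 10.6, 16.2 and 9.92 in normal libraries. Its log2 fold change was 5.61 in model against normal liver (adjusted p = 6.8e-05) and -3.76 in SAR against model liver (adjusted p = 0.00157). As with Fgf21 and Gdf15, the highest SAR value of Nupr1 was in library a. Atf3, a stress-induced transcription factor, rose by 3.61 on the log2 scale in model against normal liver (adjusted p = 1.64e-04) and fell by 2.22 in SAR against model liver (adjusted p = 2.54e-04). Trib3, a pseudokinase induced by ATF4, rose by 1.60 (adjusted p = 0.0116) and fell by 1.01 (adjusted p = 0.0180) in the same comparisons, and the second call was lost in 5 of the alternatives.

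Atf4 itself did not pass in either comparison, at 1365, 1324 and 1308 normalised reads in SAR libraries, 1265, 1464 and 1268 in model libraries and 1266, 1059.6 and 1713 in normal libraries. Its log2 fold change of 0.01 in model against normal liver (adjusted p = 0.979) changed sign under several alternatives, and ATF4 is known to be controlled largely at translation, which these data do not measure. Between SAR and model liver 5 of the 19 genes fell and none rose, with a median of -0.43 (6 and 0 at an unadjusted limma p under 0.05). With normal library c and model library c both left out, an alternative added after the data were seen, 12 of the 19 rose in model against normal liver. Calls over all genes rose in number there too, to 3774 of 12667 genes higher, from 2508 of 12583 with all libraries. Without model library c, 8 fell and 1 rose in SAR against model liver, and the share of all genes at that setting is not given here. Markers of some other cell types moved in the same directions, and those of others did not. Of 9 macrophage markers, 5 rose and 1 fell in model against normal liver, and 6 fell in SAR against model liver. Of 7 T and NK cell markers, 6 rose in the first and 2 fell in the second of these comparisons. Of 8 stellate cell and fibroblast markers, 6 rose in the first and 7 fell in the second, and of 6 bile duct markers 6 rose and 4 fell. Of 8 neutrophil markers tested, 1 rose in the first and 6 fell in the second. Of 8 sinusoidal endothelium markers, 0 rose and 4 fell in the first, and 1 fell in the second. Of 4 hepatocyte markers tested, 2 fell in the first and 2 rose in the second. The summed macrophage markers were at 3312, 3191 and 4895 normalised reads in SAR libraries, 8669, 7440.5 and 11112 in model libraries and 4273, 4551 and 6871 in normal libraries. The summed T and NK cell markers were at 209.96, 95.6 and 182 in SAR libraries, 459, 347 and 311 in model libraries and 87.4, 70.1 and 101 in normal libraries, and the part of these cells in the stress gene results was not tested.

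**Figure D3:**
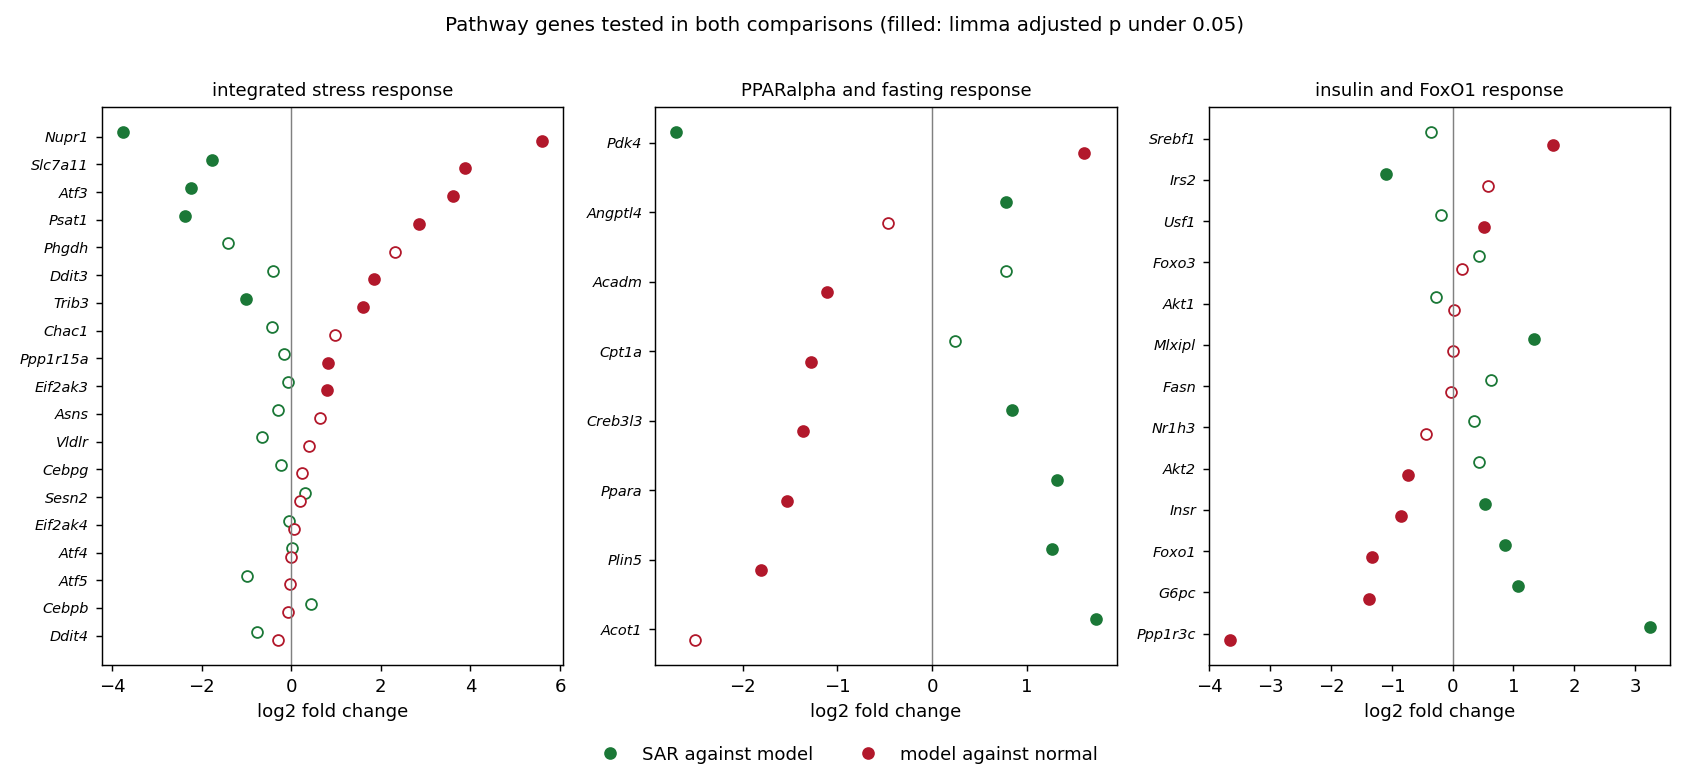
Log2 fold change (horizontal axis) of genes tested in both comparisons on the lists of integrated stress response, PPARalpha and fasting response, and insulin and FoxO1 response genes, in SAR against model and model against normal liver, with filled points for a limma adjusted p under 0.05. Nupr1 and Atf3 lie far right in model against normal and far left in SAR against model liver, and most PPARalpha genes lie left in model against normal and right in SAR against model liver; the comparisons share the model libraries.

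PPARalpha, the fatty acid sensor that induces Fgf21 in fasting, was set beside its target genes. Of 8 genes on this list tested in model against normal liver, 5 fell and 1 rose, with a median log2 fold change of -1.32. Ppara itself fell by 1.53 (adjusted p = 0.0234), and that call ended when normal library a or b or model library a or b was left out, with adjusted p up to 0.0840. Creb3l3, a liver transcription factor known to induce Fgf21, fell by 1.36 (adjusted p = 0.00919), and Plin5, a lipid droplet coat protein, fell by 1.81 (adjusted p = 0.00378). Pdk4, a kinase that restrains glucose oxidation, was the one that rose, by 1.60 (adjusted p = 0.0375), a call lost in 7 of the alternatives. Between SAR and model liver 6 of 10 rose and 1, Pdk4, fell by 2.70 (adjusted p = 0.00243). Cyp4a10, a fatty acid omega-hydroxylase, rose by 2.36 (adjusted p = 0.00623).

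Inhbe encodes the subunit of activin E, a hepatokine that restrains fat breakdown in adipose tissue. Its levels were 945, 667 and 1320.4 normalised reads in the SAR libraries, 951, 971 and 2324 in the model libraries and 1824, 1794 and 1549.7 in the normal libraries. Model libraries a and b lay below every normal library, whereas model library c was the highest of all 9. The log2 fold change in model against normal liver was -0.42 (95% interval -1.20 to 0.36, adjusted p = 0.348) and did not pass. Model library c decided this: without it the log2 fold change was -0.84 (adjusted p = 0.00338). The log2 fold change in SAR against model liver was -0.43 (95% interval -1.26 to 0.39, adjusted p = 0.389). Its ATF4 motif is among the sequences shown.

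Of 12 other activin pathway genes tested in model against normal liver, 1 fell and none rose (3 and 0 at an unadjusted limma p under 0.05). That gene was Acvr2a, a type II activin receptor, at -1.001 (adjusted p = 0.00395). Inhbc, the activin C subunit, rose by 0.75 in SAR against model liver (adjusted p = 0.0369). In the same comparison Fst, which encodes the activin-binding follistatin, fell by 1.19 (adjusted p = 0.0275), and Inhbb, the activin B subunit, fell by 1.49 (adjusted p = 0.0353). These calls were lost in 7 alternatives for Inhbc, 4 for Fst and 7 for Inhbb, with adjusted p up to 0.124, 0.1004 and 0.130. Inhba, the activin A subunit, did not pass in either comparison, at -0.50 (adjusted p = 0.105) in model against normal liver and -0.64 (adjusted p = 0.240) in SAR against model liver. Without model library c the activin counts in model against normal liver became 2 higher and 3 lower, and in SAR against model liver 1 higher and 4 lower; without normal library c they were 1 higher and 2 lower in model against normal liver.

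Angptl8 encodes a feeding-induced hepatokine that takes part in the inhibition of lipoprotein lipase. It was higher in SAR than in model liver, at 360.3, 537 and 388 normalised reads in the SAR libraries, 117, 158 and 253 in the model libraries and 187, 87.4 and 343 in the normal libraries. All 3 SAR libraries were above all model and normal libraries, and the model and normal ranges overlapped. Means were 429 ± 95.04 in SAR and 176 ± 69.7 in model liver (SD, n = 3 each), with a log2 fold change of 1.35 (SE 0.28, 95% interval 0.71 to 1.99, adjusted p = 0.00966), a call held in 15 of 15 alternatives with adjusted p up to 0.0468. In model against normal liver the log2 fold change was -0.09 (95% interval -1.24 to 1.05, adjusted p = 0.894), and its sign changed without normal library c (0.38) or model library a (0.17). In the RefSeq gene table Angptl8 overlaps Dock6, and no strand setting of the counting is given in the sources used here, so reads of the pair may not be cleanly split. Dock6 had a log2 fold change of -0.50 in SAR against model liver (adjusted p = 0.153) and of 0.92 in model against normal liver (adjusted p = 0.0113).

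Ahsg encodes fetuin-A, an abundant plasma glycoprotein that binds calcium phosphate and inhibits the insulin receptor. Its model libraries held 89376, 107195 and 117666 normalised reads. In the authors' deposited tables its group means were 116210 in model and 115500 in normal liver, a fold of 1.01 with an adjusted p of 1, and 113370 in SAR and 106570 in model liver, a fold of 1.06 with an adjusted p of 0.905. The 2 tables have different scales, which is why the model mean differs between them, and no test of replicates could be added here. The paralog Fetub, which encodes fetuin-B, was higher in SAR liver, at 14937, 15409 and 15014.5 normalised reads in SAR libraries, 5440.4, 5861 and 7022 in model libraries and 8744, 8266 and 11160 in normal libraries. Its log2 fold change was 1.34 in SAR against model liver (adjusted p = 0.00451).

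Among 21 other liver-secreted hormones tested in model against normal liver, 2 rose and 1 fell, with a median log2 fold change of -0.46. Fstl1, a follistatin-like glycoprotein made mainly by mesenchymal cells, rose by 3.63 (adjusted p = 0.0113), Lect2, a hepatokine and chemotactic factor, rose by 1.23 (adjusted p = 0.0238), and Fgf1 fell by 2.35 (adjusted p = 0.0129). Leaving out single libraries ended these calls, with adjusted p of 0.0526 for Fstl1 without model library a, of up to 0.0757 for Lect2 without normal library a or b (0.147 in the authors' deposited table), and of up to 0.0528 for Fgf1 without model library a or b. The summed level of 8 stellate cell and fibroblast markers moved with Fstl1, at 5892, 3283 and 3525 normalised reads in SAR libraries, 21834, 19174 and 10006 in model libraries and 2652, 4214 and 1109 in normal libraries, and its part in that result was not tested. Of 23 tested in SAR against model liver, 7 rose and 4 fell, with a median of 0.51. Fetub, above, was among those that rose. Fstl1 fell by 2.71 (adjusted p = 0.00381) and Hgf, hepatocyte growth factor, by 0.83 (adjusted p = 0.0264), the second a call lost in 7 alternatives. Without model library c the counts became 3 higher and 7 lower in model against normal liver, and 13 higher and 4 lower in SAR against model liver. Without normal library c they were 4 higher and 2 lower in model against normal liver. Calls over all genes also moved when a library was left out, and their shares at these settings are not given here.

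Igfbp1, whose transcription insulin represses and FoxO1 induces, was lowest in SAR liver. It had 2601, 3337 and 3449.8 normalised reads in the SAR libraries, 5188, 6951 and 9052 in the model libraries and 8074, 9752 and 12145 in the normal libraries. Every SAR library was below every model and normal library, and the model and normal ranges overlapped. Means were 3129 ± 461 in SAR and 7064 ± 1935 in model liver (SD, n = 3 each), and the log2 fold change was -1.13 (SE 0.25, 95% interval -1.69 to -0.57, adjusted p = 0.0116). The call was kept in 14 of 15 alternatives and lost without model library b, at an adjusted p of 0.0511. The normal mean was 9991 ± 2046 (SD, n = 3), and the log2 fold change in model against normal liver was -0.52 (95% interval -1.21 to 0.17, adjusted p = 0.198). With normal library c and model library c both left out it passed, at -0.57 (adjusted p = 0.0245).

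Igfbp2, a second plasma carrier of insulin-like growth factors, had 17156, 22196 and 29257 normalised reads in the SAR libraries, 16304, 17670.2 and 23039.6 in the model libraries and 17691, 14169 and 5825 in the normal libraries. Normal library c was the lowest of all 9, and the ranges of the 3 groups overlapped. The log2 fold change was 0.73 in model against normal liver (95% interval -0.35 to 1.80, adjusted p = 0.242) and 0.27 in SAR against model liver (95% interval -0.50 to 1.04, adjusted p = 0.568). Neither comparison passed in any alternative tried, and with normal library c and model library c both left out the model against normal value was 0.10.

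The insulin and FoxO1 list, which holds genes known to act beside Igfbp1 and Angptl8, was split. Of 14 tested in model against normal liver, 3 rose and 5 fell, and of 15 tested in SAR against model liver, 5 rose and 1 fell. Srebf1, which encodes the lipogenic regulator SREBP1, rose by 1.65 (adjusted p = 0.00562) in model against normal liver. Foxo1 fell by 1.33 (adjusted p = 0.00271) in model against normal liver. In SAR against model liver it rose by 0.86 (adjusted p = 0.0284), a call lost in 6 of the alternatives. Ppp1r3c, a glycogen-targeting phosphatase subunit, fell by 3.67 (adjusted p = 7.32e-04) in model against normal liver and rose by 3.24 (adjusted p = 0.00368) in SAR against model liver, where the adjusted p in the authors' deposited table was 0.0811. Mlxipl, which encodes the glucose sensor ChREBP, rose by 1.34 (adjusted p = 0.00474), and Irs2, the insulin receptor substrate that FoxO1 induces, fell by 1.09 (adjusted p = 0.00210) in SAR against model liver. Without model library c, 9 rose and 1 fell there, and the share of all genes at that setting is not given here.

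In the IGF axis, 3 of 15 other genes rose and 3 fell in model against normal liver, and 4 rose and 6 fell in SAR against model liver. Over all genes tested, 19.9% rose and 19.1% fell in the first of these comparisons, and 13.2% rose and 16.1% fell in the second. Without model library c the counts in model against normal liver were 3 higher and 5 lower, and without both c libraries 4 higher and 6 lower. The shares above are those with all libraries kept, not those of these settings. Ghr, the growth hormone receptor, had 6332, 7071 and 5803 normalised reads in SAR libraries, 1231, 1364 and 2283 in model libraries and 5662, 4974 and 3328 in normal libraries. It fell by 1.54 (adjusted p = 0.00760) in model against normal liver and rose by 2.05 (adjusted p = 0.00127) in SAR against model liver. Igfals, the subunit that holds IGF complexes in plasma, rose by 1.92 in SAR against model liver (adjusted p = 0.00381). Igfbp7, a binding protein known from endothelial and mesenchymal cells, rose by 2.93 in model against normal liver (adjusted p = 0.00705). Igf1 had a log2 fold change of -0.69 in model against normal liver (adjusted p = 0.0564), which passed in 7 alternatives, and in SAR against model liver it rose by 0.86 (adjusted p = 0.0260), a call lost in 5 alternatives that each left out 1 library. Socs2, an inhibitor of growth hormone signalling, fell by 1.38 in SAR against model liver (adjusted p = 0.00750). Igf1r rose by 1.15 (adjusted p = 0.0316), a call lost in 5 alternatives, and Insr, the insulin receptor, fell by 0.85 (adjusted p = 0.00945) in model against normal liver.

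Of other plasma hormone and vitamin carriers, 5 could be tested in model against normal liver, where 1 rose and none fell (2 and 1 at an unadjusted limma p under 0.05), and 3 in SAR against model liver, where 1 rose and 1 fell. Serpina7, thyroxine-binding globulin, rose by 3.48 in model against normal liver (adjusted p = 0.00857). In SAR against model liver it fell by 1.28 (adjusted p = 0.0261), a call lost in 6 alternatives. Serpina6, corticosteroid-binding globulin, rose by 1.24 in SAR against model liver (adjusted p = 0.0231), a call lost in 7 alternatives. Its levels were 2888, 2123 and 2823 normalised reads in SAR libraries, 679, 1086 and 1870.4 in model libraries and 757, 434 and 136 in normal libraries.

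Lepr, the leptin receptor, had the largest standard error of the 9 genes in model against normal liver (0.67) and in SAR against model liver (0.52). It had 148, 152 and 249.99 normalised reads in the SAR libraries, 149.9, 194 and 741 in the model libraries and 471, 872 and 1891 in the normal libraries. Library c was the highest in the model and in the normal group, and model library c lay inside the normal range. In model against normal liver the log2 fold change was -1.72 (95% interval -3.29 to -0.16, adjusted p = 0.0763), which did not pass, and without model library c it was -2.43 (adjusted p = 0.0109). The value in SAR against model liver was -0.62 (95% interval -1.81 to 0.56, adjusted p = 0.390), and without model library c its sign turned, at 0.08. Levels are of the whole gene, so the signalling and the short or soluble forms of the receptor are not told apart.

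Of 10 leptin signalling genes tested, 3 rose and 3 fell in model against normal liver, and 2 rose and 2 fell in SAR against model liver. Leprot, which encodes a protein that limits leptin and growth hormone receptors at the cell surface, passed in both comparisons. It had 245, 238 and 318 normalised reads in SAR libraries, 555, 554 and 509 in model libraries and 279, 273 and 362 in normal libraries, and it rose by 0.83 (adjusted p = 0.00641) and fell by 1.002 (adjusted p = 0.00369) in model against normal and SAR against model liver. Jak2, the kinase bound to the receptor, rose by 0.65 in model against normal liver (adjusted p = 0.0245). Lifr and Il6ra, receptors of related cytokines, fell by 1.54 (adjusted p = 0.0168) and 1.18 (adjusted p = 0.0239) in model against normal liver and rose by 1.31 (adjusted p = 0.00255) and 1.36 (adjusted p = 0.00394) in SAR against model liver. The model against normal calls of Jak2, Lifr and Il6ra were lost in 5, 4 and 4 alternatives. Cish, a STAT5-induced inhibitor of cytokine signalling, fell by 2.78 in SAR against model liver (adjusted p = 0.00474). Socs3, the STAT3-induced inhibitor of leptin signalling, did not pass, at 0.46 in model against normal liver (adjusted p = 0.489) and -0.46 in SAR against model liver (adjusted p = 0.176), but passed in model against normal liver without normal library c (adjusted p = 0.00484). Without normal library c the model against normal counts were 4 higher and 4 lower, and without model library c 2 higher and 2 lower.

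Klb, which encodes beta-klotho, was low in model liver, at 101, 149 and 186 normalised reads in the SAR libraries, 41.1, 56.5 and 112 in the model libraries and 294, 241 and 365 in the normal libraries. Every model library was below every normal library, and SAR library a lay below model library c, so the SAR and model ranges overlapped. The means were 70.0 ± 37.5 in model and 299.8 ± 62.3 in normal liver (SD, n = 3 each), and the log2 fold change was -2.19 (SE 0.36, 95% interval -3.04 to -1.35, adjusted p = 0.00467), which held in 16 of 16 alternatives. In SAR against model liver the mean was 145 ± 42.3 (SD, n = 3) and the log2 fold change 1.15 (SE 0.38, 95% interval 0.30 to 2.004, adjusted p = 0.0482). This call was lost in 9 of 15 alternatives, 4 of which left out model library a, model library b, SAR library b or SAR library c, with adjusted p up to 0.156, and at 0.0901 in the authors' deposited table. Of the 8 hepatocyte markers, 5 were lower and 0 higher in model liver in the authors' deposited table, and the rest were not called. By limma 2 of the 4 markers that could be tested were lower. The part of hepatocyte content in the result of Klb was not tested.

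Fgfr4, the receptor that works with beta-klotho, gave no call in any comparison. Its levels were 352, 417 and 297 normalised reads in the SAR libraries, 326, 278 and 230.4 in the model libraries and 339.9, 236 and 589.7 in the normal libraries. The ranges of the 3 groups overlapped, and normal library c was the highest. The log2 fold change was -0.39 in model against normal liver (95% interval -1.13 to 0.34, adjusted p = 0.347) and 0.37 in SAR against model liver (95% interval -0.06 to 0.81, adjusted p = 0.168). With normal library c and model library c both left out the model against normal value was 0.08, so its sign rested on those libraries.

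Of 11 other genes of the FGF receptor complex and its bile acid response, 2 rose and 2 fell in model against normal liver, and 3 rose and 2 fell in SAR against model liver. The genes that rose in model liver were the other receptors Fgfr1, by 1.36 (adjusted p = 0.0287), and Fgfr2, by 1.003 (adjusted p = 0.0117), and those fell in SAR against model liver by 1.19 (adjusted p = 0.0421) and 0.85 (adjusted p = 0.0221). The calls of Fgfr1 were lost in 7 alternatives in model against normal liver and in 8 in SAR against model liver, and that of Fgfr2 in 4 in SAR against model liver. FGFR4 signalling is known to repress Cyp7a1 and Cyp8b1, the first enzyme of bile acid synthesis and the 12-alpha-hydroxylase. Cyp8b1 fell by 3.63 in model against normal liver (adjusted p = 0.00229) and rose by 3.26 in SAR against model liver (adjusted p = 1.76e-04), at 6318, 6984 and 7908 normalised reads in SAR libraries, 517, 926 and 861 in model libraries and 13216, 14056 and 4171 in normal libraries. Cyp7a1 had 125, 352 and 781 normalised reads in SAR libraries, 60.5, 80.2 and 243 in model libraries and 626, 521 and 473 in normal libraries. It fell by 2.33 in model against normal liver (adjusted p = 0.00845), and its log2 fold change of 1.63 in SAR against model liver did not pass (adjusted p = 0.0946), but passed without model library c (2.23, adjusted p = 0.0116) or SAR library a (2.32, adjusted p = 0.0266). Nr0b2, which encodes the bile acid induced repressor SHP, did not pass in model against normal liver, at 0.48 (adjusted p = 0.296), and rose by 1.41 in SAR against model liver (adjusted p = 0.00298). Without model library c, 5 rose and 3 fell in SAR against model liver, and the share of all genes at that setting is not given here.

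SAR liver was also set against normal liver, which asks how far the treated MCD liver stood from liver without the diet. Of the 9 genes, 1 rose (Gdf15), 2 fell (Igfbp1 and Lepr) and 6 did not pass, where 1.67% of 11780 genes tested rose and 1.81% fell, or 3.48% in either direction. Their median log2 fold change was -0.04, against 0.00 over all genes tested. This comparison shares the SAR and the normal libraries with the other comparisons and is not independent of them. Gdf15 was 286 ± 147 in SAR and 57.4 ± 24.3 normalised reads in normal liver (SD, n = 3 each), a log2 fold change of 2.28 (SE 0.42, 95% interval 1.32 to 3.24, adjusted p = 0.0347). Igfbp1 had a log2 fold change of -1.67 (SE 0.20, 95% interval -2.13 to -1.20, adjusted p = 0.0178). Lepr was 183 ± 57.7 in SAR and 1078 ± 733 normalised reads in normal liver (SD, n = 3 each), a log2 fold change of -2.36 (SE 0.45, 95% interval -3.40 to -1.32, adjusted p = 0.0375). In each of these genes the SAR and normal libraries did not overlap. Of the other lists, 2 of 17 integrated stress response genes rose, among them Atf3 by 1.37 (adjusted p = 0.0257), and 3 of 14 insulin and FoxO1 genes rose. None of 12 activin genes passed, where 0 rose and 6 fell at an unadjusted limma p under 0.05. None of 14 IGF axis genes passed, where 0 rose and 1 fell at that level. The share of all genes at that unadjusted level is not given here, so these counts cannot be set against it. Nr0b2 rose by 1.87 (adjusted p = 0.0258). The calls of Atf3 and Nr0b2 were each lost in 5 alternatives, with adjusted p up to 0.0867 and 0.0911.

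These 3 calls were close to the threshold. That of Gdf15 was lost without any 1 SAR library or normal library a or b, with adjusted p up to 0.103. The call of Igfbp1 was lost without SAR library a or b or normal library b, with adjusted p up to 0.0756, and that of Lepr without any 1 SAR library or normal library b, with adjusted p up to 0.134. They also depended on the test: limma without the variance trend gave 0.0873 for Gdf15, 0.0571 for Igfbp1 and 0.0926 for Lepr, voom weights gave 0.0532 for Gdf15 and for Lepr, and 1 fit of all 9 libraries gave 0.0545 for Lepr. Of 14 alternatives, 7 kept the call of Gdf15, 10 that of Igfbp1 and 7 that of Lepr. Of the genes that did not pass, Klb had no overlap and a log2 fold change of -1.06 (adjusted p = 0.0584), and Inhbe had no overlap and -0.87 (adjusted p = 0.0735). Over all genes, 15.8% were without overlap and higher in SAR liver and 17.4% were without overlap and lower. Angptl8 had no overlap and 1.24 (adjusted p = 0.122), and without normal library c it was 1.71 (adjusted p = 0.0137). Inhbe likewise passed without normal library c (-0.94, adjusted p = 0.0415). Fgf21, at 0.19 (95% interval -1.01 to 1.39, adjusted p = 0.844), changed sign without SAR library a (-0.32) or normal library c (-0.29). Fgfr4 was at -0.04 (95% interval -0.74 to 0.67, adjusted p = 0.949), with its sign turned without SAR library c (0.08) or normal library c (0.31), and Igfbp2 was at 0.98 (95% interval 0.02 to 1.93, adjusted p = 0.184).

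**Figure D4:**
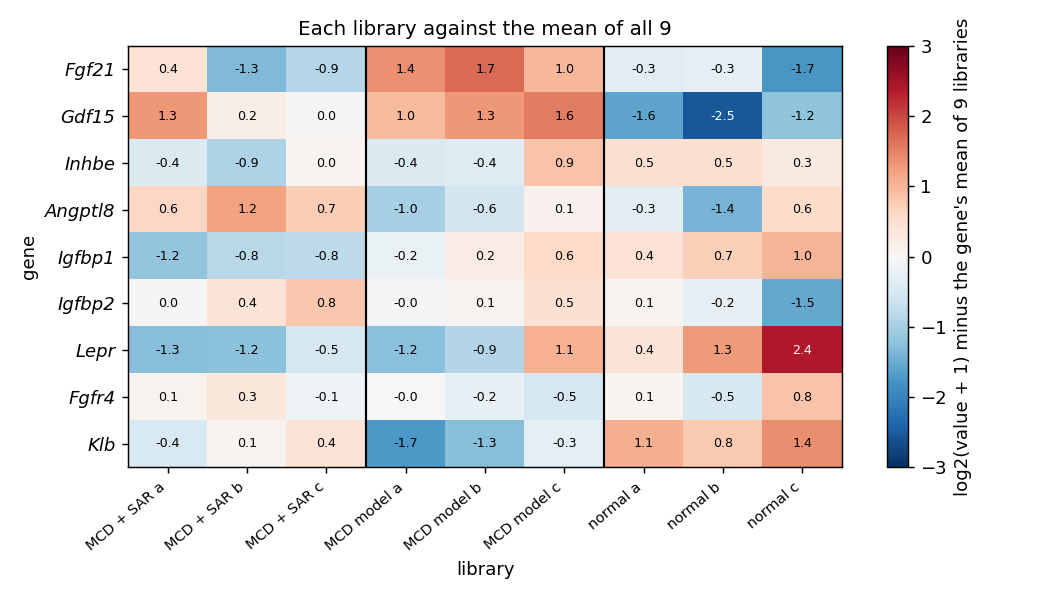
Heat map of the deviation of each library (columns, SAR then model then normal) from the mean of all 9 libraries, in log2(normalised reads + 1), for the 9 genes solved in all libraries (rows). Fgf21 is above its mean in the 3 model libraries and in SAR library a, and Gdf15 in the 3 model and the 3 SAR libraries. Normal library c holds the highest value of Lepr and the lowest of Igfbp2.

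In the model group 7 of the 9 genes (Gdf15, Angptl8, Igfbp1, Igfbp2, Lepr, Klb and Inhbe) had their highest value in library c, and Fgf21 and Fgfr4 their lowest. The heat map of deviations shows each library against the mean of all 9 on the log2(normalised reads + 1) scale. SAR library a stood above the mean for Fgf21, at 0.43, and for Gdf15, at 1.29, whereas SAR libraries b and c stood at -1.33 and -0.85 for Fgf21 and at 0.19 and 0.04 for Gdf15. In normal library c, Lepr was at 2.40, Klb at 1.39 and Fgfr4 at 0.85, and Fgf21 was at -1.75 and Igfbp2 at -1.53. In model library c, Lepr was at 1.05 and Inhbe at 0.86, where model libraries a and b were at -1.25 and -0.88 for Lepr and at -0.43 and -0.40 for Inhbe. Of 3 hepatocyte markers solved in every library, Fabp1, a fatty acid binding protein, made up most of the summed level, at 86738, 29974 and 60448 normalised reads in SAR libraries, 17771, 21158 and 44822 in model libraries and 52091, 56259.8 and 14964 in normal libraries. It was highest in SAR library a and model library c of their groups and lowest in normal library c. The other 2 did not follow it in every group. Hnf4a had 10497, 12137 and 10112 normalised reads in SAR libraries, 4134, 5164 and 5008 in model libraries and 12692, 11711 and 12033 in normal libraries. Serpina1c had 5980, 3386 and 3310 in SAR libraries and so was highest in library a there, as Fabp1 was. In the other groups it was highest in model library b and in normal library c. The part of these differences in the values of the 9 genes was not tested.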

How the data were processed

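Per the labels' protocols, 9 samples of liver RNA were made into libraries with a NEBNext Ultra kit. The submitters' processing notes name mm9 as the build. No aligner, counter or strand setting is given in the sources used here. The authors deposited 2 tables of group means. Per the file headers, each deposited value is a signal, a mean over 3 libraries of reads scaled by the authors' DESeq size factors. Fold and log2 columns, also deposited, give the ratio of 2 such means and its logarithm. Raw and adjusted p-values in the deposited tables come from the test run by the authors.

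Each mean carries 15 significant digits and is a sum of 3 whole read numbers, each divided by 3 times its library's size factor. The size factors were found from low genes, and the reads then solved. In the first pass 1 solution was found for 16223 of 16225 genes in SAR, 16192 of 16297 in normal and 16230 of 16264 and 16300 of 16340 in model (once per table), and none lacked a solution. For the model group, present in each table, both solutions were identical in 16071 of 16071 genes. Of 1000 means moved slightly, 0 were solved, against 1000 of 1000 unmoved. All 9 libraries were solved for 16439 of 16521 genes. Solved reads came to 7185719, 7737182 and 7133721 in SAR, 12503819, 13320823 and 14939063 in model and 8972782, 7843915 and 7951842 in normal libraries. These are 59.8% of the summed means in SAR, 100% in model and 56% in normal. In SAR and normal, group means above 130000 were not tried, and some other abundant genes had several solutions. For Ahsg 2 read sets met the digits in SAR and 4 in normal.

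Genes with a mean of at least 10 normalised reads over 6 libraries were tested on log2(value + 1) with limma 3.58.1 in R 4.3.3 (trended variance, two-sided, Benjamini-Hochberg over all genes tested, threshold 0.05), with the authors' size factors within a table and medians of ratios over 9 libraries for SAR against normal. The shift between these scales was at most 0.0215 on the log2 scale. Fold changes on this scale understate those of low genes. Recovery and fit were tested on simulated data. An exact permutation test of 3 against 3 cannot go below 0.1 and was not run. Of 16521 IDs 16490 had a symbol, and Igf2, Shbg and Acvr1c were not analysed here. The alternatives were other filters, pseudocounts, scalings, voom weights, no trend, 1 fit of all 9 libraries, the authors' test and leaving out each library. Beside the 10 genes, genes are named by a rule: from each of 9 lists, up to 2 that rose and 2 that fell with the smallest adjusted p in model against normal and in SAR against model liver, plus Cyp7a1, Nr0b2, Atf4, Atf3, Trib3, Ppara, Foxo1, Socs3, Igf1, Inhba and Inhbb. Some genes that the rule names are not reported here. Dock6 was added after its overlap with Angptl8 was seen. The 10 genes, the lists and the tests were chosen with earlier results of these data known, and some genes stand on more than 1 list.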

Additional observations from a re-analysis of the deposited data

How the results depend on the processing

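Of the alternatives for the 9 genes tested, 359 values kept their direction and their side of the threshold, 28 lost a call, 9 gained one and 9 changed sign; for the other named genes the numbers were 1086, 124, 14 and 13. The calls of Fgf21, Gdf15 and Klb in model against normal liver, and of Fgf21 and Angptl8 in SAR against model liver, were kept in every alternative tried. When 1 library was left out, genes called over the whole table ranged from 1244 to 2848 higher and from 1177 to 2944 lower in model against normal liver, from 633 to 2562 higher and from 912 to 2613 lower in SAR against model liver, and from 4 to 545 higher and from 1 to 562 lower in SAR against normal liver. With normal library c and model library c both left out, chosen after seeing the data, 3774 genes were higher in model liver. Without the variance trend 16 genes were higher and 6 lower in SAR against normal liver.

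Signs turned for these log2 fold changes, and the cause was not tested. With normal library c and model library c both left out, Angptl8 was at 0.0802 and Fgfr4 at 0.0824 in model against normal liver. The authors' deposited table gave -0.0174 for Atf4 in that comparison, and upper-quartile scaling gave -0.0584 for Atf4 in SAR against model liver and 0.00935 for Socs3 in SAR against normal liver. With 1 library left out, values in model against normal liver ranged from -0.60 to 0.38 for Angptl8 and from -0.15 to 0.196 for Atf4. In SAR against model liver they ranged from -1.07 to 0.0804 for Lepr and from -0.0134 to 0.0990 for Atf4. In SAR against normal liver they ranged from -0.32 to 0.57 for Fgf21, from -0.35 to 0.31 for Fgfr4, from -0.38 to 0.65 for Socs3 and from -0.14 to 0.202 for Atf4. No paired analysis was possible because the tables hold group means and the solved libraries carry no replicate number. The number of 3 libraries a group limits precision, and abundant genes such as Ahsg have no value per library in SAR and normal liver. A count model was not run on the solved reads.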
